A study of Mus musculus with 6 samples.

Results

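The genes described here mark the blood vessel endothelium or carry the vascular endothelial growth factor (VEGF) and angiopoietin signals in it. They were chosen by symbol and are Vegfa, Kdr, Flt1, Tek, Tie1, Eng, Cdh5, Pecam1, Cldn5 and Vwf, which made up 10 of the 24054 genes in the count table. All 10 passed the filter on low counts and were read from a fit over the 12660 genes that did. Their levels were followed in 6 RNA-seq libraries of gastrocnemius, a mixed hindlimb muscle, from male C57BL/6 mice. The 3 MI4KO libraries came from mice with Irf4 flox/flox alleles and a Myl1-Cre driver, which acts selectively in skeletal muscle. The 3 MI4OE libraries came from mice with the same driver and a Rosa26-LSL-IRF4 transgene, so both groups carried Cre and neither was designed to alter IRF4 in endothelial cells. The study set out to find molecular changes that go with IRF4 in muscle, and no flox or wild-type gastrocnemius was analysed here. A high fat diet is named in the labels of all 6 libraries, while the study's text describes these lines on chow, and the age of the mice is not given in the sources used here. Replicates are numbered only in the order of deposit, as MKO1283, MKO1420 and MKO1421 for MI4KO and MOE1536, MOE1541 and MOE1579 for MI4OE.

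Endothelial cells line the capillaries that run along each muscle fiber and bring it oxygen and fuel. Muscle fibers and other cells release VEGF-A, which binds receptors on the endothelium and makes capillaries sprout, while the angiopoietin receptors keep mature vessels stable. Oxidative fibers are generally surrounded by more capillaries than glycolytic ones. In whole muscle, fewer endothelial cells and less RNA per endothelial cell cannot be told apart.

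Promoter sequence is shown for the ligand Vegfa and its receptors Kdr and Flt1, because IRF4 is the manipulated factor and binds DNA. RefSeq entries on GRCm38.p6 were at hand for 7 of the 10 genes, with 8 windows, since Vegfa had more than one start. The 250 bases before the start are printed 5′ to 3′ on the strand of the gene. The interferon-stimulated response element, searched for on either strand as GAAA repeated after a gap of 2 bases, was found in 1 of the 8 windows, that of Vegfa at chr17:46032378-46032627 on the minus strand, where it lies on the opposite strand in capitals. It was present in 2.98% of all 32851 promoter windows.
Vegfa: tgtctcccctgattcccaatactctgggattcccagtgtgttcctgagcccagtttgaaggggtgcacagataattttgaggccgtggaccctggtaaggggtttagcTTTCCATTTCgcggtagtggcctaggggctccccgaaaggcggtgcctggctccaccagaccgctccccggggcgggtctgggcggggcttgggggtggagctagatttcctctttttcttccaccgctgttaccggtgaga
The Kdr window lies at chr5:75978456-75978705 on the minus strand, and the capitals mark an E-box, searched for as CANNTG, which 66.2% of all windows held and 5 of these 8.
Kdr: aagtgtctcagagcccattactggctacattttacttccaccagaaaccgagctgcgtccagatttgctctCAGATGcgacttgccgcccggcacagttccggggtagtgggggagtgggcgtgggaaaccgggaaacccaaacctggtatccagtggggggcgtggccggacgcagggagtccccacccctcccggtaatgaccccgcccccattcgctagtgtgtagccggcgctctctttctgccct
The Flt1 window at chr5:147726012-147726261, also on the minus strand, held none of the 5 motifs searched for and is therefore printed without capitals.
Flt1: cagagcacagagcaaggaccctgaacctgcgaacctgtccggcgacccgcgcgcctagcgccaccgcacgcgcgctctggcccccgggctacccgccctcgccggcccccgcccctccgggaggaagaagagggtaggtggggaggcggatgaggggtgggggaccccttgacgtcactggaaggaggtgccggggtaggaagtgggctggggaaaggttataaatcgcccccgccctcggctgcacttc
The composite element that IRF4 binds with a partner of the ETS family, searched for as GGAA and GAAA with 2 bases between them, was in 0 of the 8 windows and in 2.30% of all windows. The ETS letters CCGGAAGT were likewise in 0 of 8, against 2.88% of all windows. The hypoxia response letters ACGTG were in 1 of 8, the other Vegfa window, against 16.6% of all windows. These matches are letters in a window and not measured sites.

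Total expected counts, the reads per library as estimated by RSEM, ran from 18828605 to 29239585, so that 3 counts correspond to between 0.101 and 0.148 CPM, counts scaled to library size. The manipulated gene followed its labels, with Irf4 at 6, 0 and 2 counts in MI4KO replicates 1, 2 and 3 but at 2864, 10557 and 5911 counts in those of MI4OE. As CPM, Irf4 was at 141 in MI4OE replicate 1, 369 in replicate 2 and 261 in replicate 3. The libraries had the markers of skeletal muscle, with Ckm, the muscle creatine kinase, between 22473 and 44001 CPM. The first replicate of MI4OE stood apart, with 25.5% of its counts in its 10 most abundant genes against 32.8% to 36.8% elsewhere.

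All 10 genes were higher on average in MI4OE than in MI4KO muscle, by 1.12-fold for Vwf, the von Willebrand clotting factor, up to 2.32-fold for Kdr, the main signaling receptor for VEGF-A. Their median log2 difference was 0.77, against -4.3e-05 over all genes tested, of which 50% were higher in MI4OE. None of the 10 passed an adjusted p of 0.05 in edgeR's quasi-likelihood test, a threshold that 0.0237% of all genes tested passed. Neither DESeq2 nor the exact test of edgeR called any, at 0 of 10 each, against 0.877% and 0.853% of all genes. In the quasi-likelihood test 5 of 10 had an unadjusted p under 0.05, as did 7.58% of all genes. The criterion of the study, a fold of 1.5 with an unadjusted p under 0.05, was met by 5 of 10, all higher in MI4OE, namely Cdh5, Flt1, Kdr, Tek and Tie1. By that criterion 6.64% of all genes were called, and 4.36% were called as higher in MI4OE. The MI4OE libraries lay wholly above the MI4KO libraries for 6 of 10 genes, which are those 5 and Vegfa, compared with 7.38% of all genes. With 3 libraries a group, the two-sided exact permutation p was 0.1 for each of these 6, the smallest it can be.

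**Figure D1:**
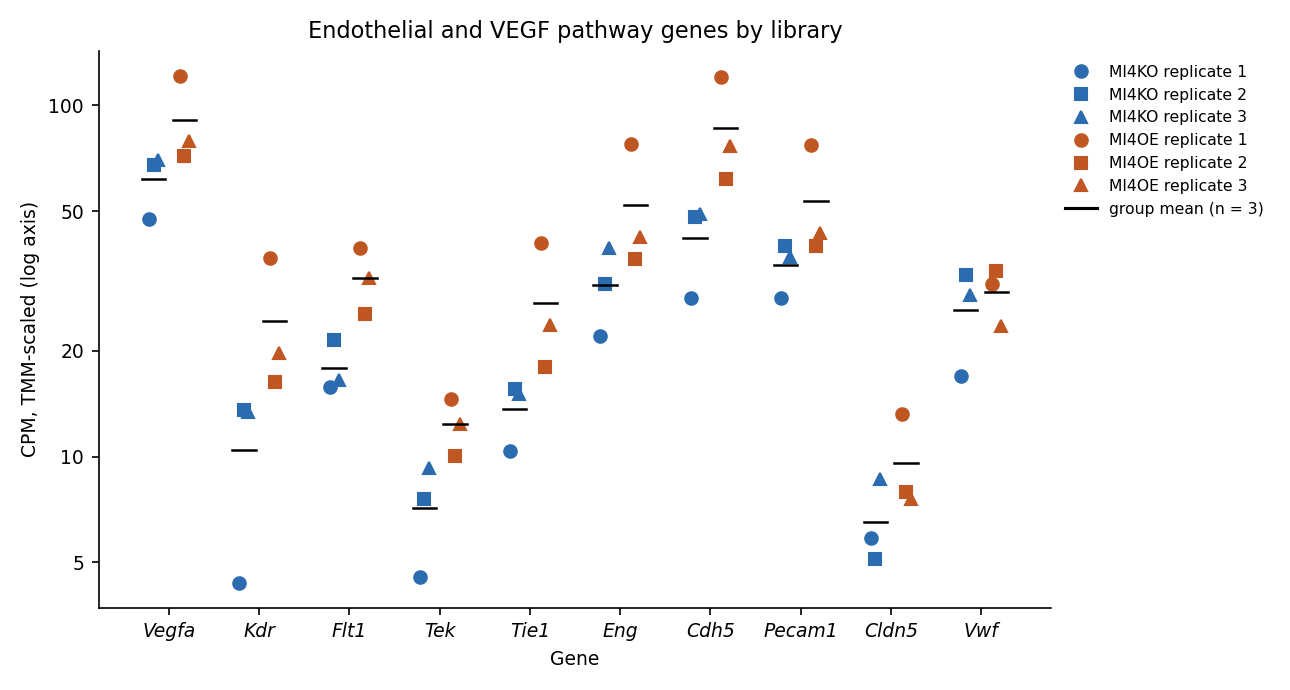
Level of each gene in each library as TMM-scaled CPM on a log axis, with MI4KO in blue, MI4OE in orange, 1 symbol per replicate and a bar at the mean of 3. The first replicate of MI4KO is lowest for 9 of 10 genes and the first of MI4OE is highest for 9 of 10.

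One library at each end carried much of the difference. The first replicate of MI4KO was the lowest of the 6 for 9 genes, the exception being Cldn5, and the first replicate of MI4OE was the highest for 9 genes, the exception being Vwf. Summed over the 10 genes, the level was 184, 282 and 287 CPM in the MI4KO replicates 1, 2 and 3, and 572, 321 and 360 CPM in the MI4OE replicates. The other 4 libraries therefore spanned only 282 to 360 CPM. Without the first MI4KO replicate 2 genes met the criterion, Cdh5 and Flt1, where 4.88% of all genes did. Without the first MI4OE replicate 3 of the 10 met it, Cdh5, Flt1 and Tie1, against 4.56% of all genes. Without both, an alternative chosen after the values were seen, Flt1 alone met it against 4.89% of all genes, the median was 0.29, and 9 of 10 genes were still higher in MI4OE. The MI4OE library with the highest sum of the 10 genes was the one with the lowest Irf4.

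**Figure D2:**
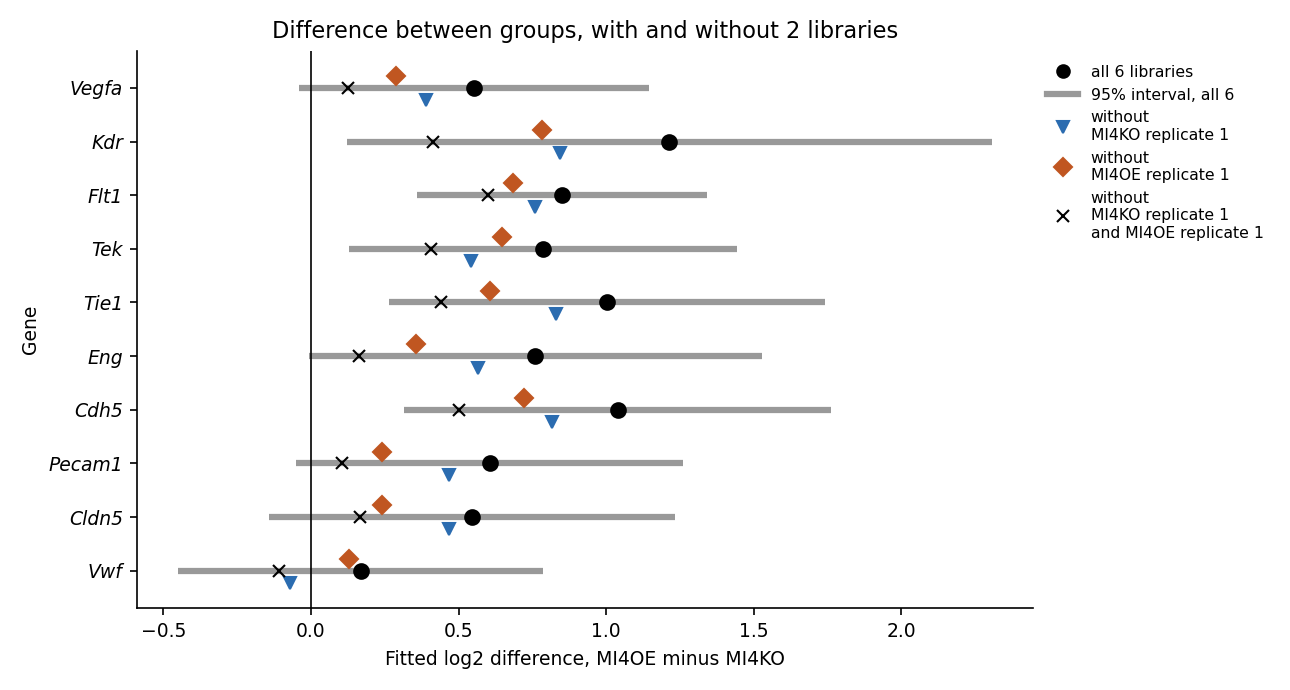
Fitted log2 difference of each gene, MI4OE minus MI4KO, with all 6 libraries (black dot, gray bar for the 95% interval) and without 1 or both of the first replicates. The differences shrink toward 0 without these libraries, to between -0.11 for Vwf and 0.60 for Flt1 when both are left out.

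Vegfa encodes VEGF-A, the ligand of the pathway. Its level was 47.3, 67.7 and 70.1 CPM in the MI4KO replicates against 121, 71.7 and 78.9 CPM in the MI4OE replicates. The groups did not overlap, but the second replicate of MI4OE stood only slightly above the third of MI4KO. The log2 difference was 0.55 with a standard error (SE) of 0.25 and a 95% interval from -0.04 to 1.15, and the adjusted p was 0.685 by edgeR. Without the first MI4OE replicate it was 0.29.

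The annotation used by the authors listed 9 Vegfa transcripts, in 3 sets of 3 with the same spacing of lengths. Within each set the longest and the middle transcript differed by 72 bases, or 24 codons, and the middle and the shortest by 132 bases, or 44 codons, the steps made by skipping the exons for the stretches that bind heparin and matrix. The transcripts were added up into 3 splice classes by their place in their set, which is not their order of length over all 9. The middle class made up most of the Vegfa signal in every library, from 61.9% to 75.4% of its TPM, an abundance adjusted for transcript length. The longest class took 11.5% to 25.9% and the shortest 2.38% to 16.6%, with the shares of both groups overlapping in each class. The lowest share of the shortest class, 2.38%, was in the MI4OE library with the most Vegfa, and the next, 6.90%, was in the MI4KO library with the least. Reads of 50 bases rarely span the skipped exons, so these shares are estimates, and the split among transcripts of nearly equal length moved from 0 to most of the reads between libraries.

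**Figure D3:**
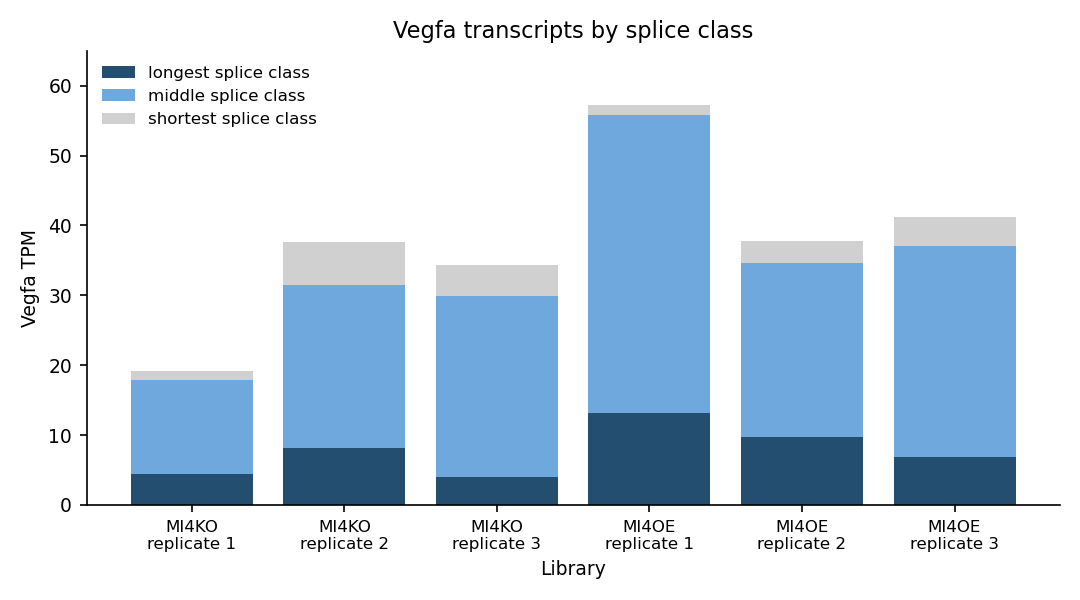
Vegfa level in TPM in each library as stacked bars, split into the 3 splice classes of its 9 annotated transcripts. The middle class is the largest part of every bar, at 61.9% to 75.4%.

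Kdr encodes VEGFR2, through which VEGF-A drives proliferation and sprouting. Its level was 4.38, 13.6 and 13.4 CPM in the MI4KO replicates against 36.8, 16.3 and 19.7 CPM in the MI4OE replicates. No MI4OE library overlapped MI4KO, yet within MI4KO the highest library was 3.09 times the lowest, the widest spread of any of the 10 genes. The log2 difference of 1.21 had an SE of 0.47 and an interval from 0.12 to 2.31, with an unadjusted p of 0.0338 and an adjusted p of 0.611 in edgeR's quasi-likelihood test. It was 0.78 without the first MI4OE replicate and 0.41 without both first replicates.

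Flt1 encodes VEGFR1, which binds VEGF-A tightly and can hold it away from VEGFR2. It was at 15.8, 21.4 and 16.5 CPM in MI4KO against 39.3, 25.4 and 32.2 CPM in MI4OE replicates 1, 2 and 3. Of the 10 genes it rested least on the first replicates, with each MI4OE library above each MI4KO library and the spread within MI4KO, at 1.36-fold, the narrowest of the set. The log2 difference was 0.85 with an SE of 0.21 and an interval from 0.36 to 1.34. Its unadjusted p of 0.00421 was the smallest among the members and its adjusted p was 0.489 by edgeR, ranging from 0.0664 with DESeq2 to 0.912 over 15 other settings of the processing. With both first replicates left out it was 0.60, with an unadjusted edgeR p of 0.0340. The annotation held 1 transcript of Flt1, so the secreted form was not measured apart from the receptor.

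The ligand was also set against its receptor within each library. The ratio of Vegfa to Kdr in TPM was 17.9, 8.21 and 8.78 in the MI4KO replicates and 5.66, 7.23 and 6.69 in the MI4OE replicates. The MI4OE ratios were all below the MI4KO ratios, and an exact permutation test on the log2 ratio gave p = 0.1, the smallest possible here. Adjusted over the 12 ratios compared, that permutation p was 0.3. The ratio of Flt1 to Kdr, the decoy over the signaling receptor, was 3.11 in the first MI4KO replicate, while the other 5 libraries had 0.922 to 1.41, with the groups overlapping and an exact permutation p of 0.5.

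Tek encodes TIE2, the receptor of the angiopoietins. Its level was 4.54, 7.57 and 9.30 CPM in MI4KO against 14.6, 10.03 and 12.4 CPM in MI4OE, without overlap. The difference of 0.79 (log2) had an SE of 0.28, an interval from 0.13 to 1.45 and an adjusted edgeR p of 0.574. Tie1 encodes the partner receptor that modulates TIE2. It was measured at 10.4, 15.6 and 15.1 CPM in MI4KO against 40.6, 18.0 and 23.7 CPM in MI4OE, again without overlap, though the first MI4OE replicate was 2.25 times the second. For Tie1 the difference was 1.002 with an SE of 0.32, an interval from 0.26 to 1.74 and an adjusted edgeR p of 0.546. Without the first MI4OE replicate it was 0.61. The TPM ratio of Tie1 to Tek overlapped between the groups, from 1.96 to 2.75 in MI4KO and from 2.19 to 3.32 in MI4OE.

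Eng encodes endoglin, an endothelial co-receptor for BMP and TGF-beta ligands. It stood at 22.1, 31.0 and 39.2 CPM in MI4KO against 77.7, 36.6 and 42.2 CPM in MI4OE. The second replicate of MI4OE lay below the third of MI4KO. The log2 difference was 0.76 with an SE of 0.33, an interval from -0.01 to 1.53 and an adjusted edgeR p of 0.663. Without the first MI4OE replicate it was 0.35.

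Cdh5 encodes VE-cadherin, the adhesion protein of endothelial junctions. Its CPM values were 28.3, 48.1 and 49.1 in MI4KO and 120, 61.5 and 76.5 in MI4OE. Even the lowest MI4OE library stood clear of the highest MI4KO library. The log2 difference of 1.04 had an SE of 0.31 and an interval from 0.32 to 1.76, with edgeR p-values of 0.0110 unadjusted and 0.521 adjusted. With 1 library left out at a time it ran from 0.72 to 1.23.

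Pecam1, which encodes the platelet and endothelial adhesion molecule CD31, did not separate the groups in the same way. Its level was 28.3, 39.7 and 37.0 CPM in MI4KO against 77.2, 39.6 and 43.1 CPM in MI4OE, so that the second MI4OE replicate was level with the second MI4KO replicate. For Pecam1 the log2 difference was 0.61 (SE 0.28) with an adjusted edgeR p of 0.688. It was 0.24 without the first MI4OE replicate and 0.11 without both first replicates. Cldn5, the main claudin of endothelial tight junctions, was at 5.85, 5.11 and 8.63 CPM in MI4KO against 13.2, 7.93 and 7.55 CPM in MI4OE. Its groups overlapped, and its difference of 0.55 had an SE of 0.30 and an adjusted edgeR p of 0.730. With 1 library left out it ran from 0.24, without the first MI4OE replicate, to 0.78, without the third MI4KO replicate.

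Vwf, which encodes a clotting protein stored by the endothelium of larger vessels in particular, differed least. Its level was 16.9, 32.8 and 28.8 CPM in MI4KO against 31.0, 33.7 and 23.5 CPM in MI4OE. The groups overlapped, and the interval of the log2 difference, 0.17, ran from -0.45 to 0.79, with an adjusted edgeR p of 0.915. The difference was -0.07 without the first MI4KO replicate. It is the one gene of the 10 whose sign turned in any of those 15 settings.

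Ratios to Cdh5 in TPM were compared within each library. Pecam1 over Cdh5 was 1.22, 1.01 and 0.924 in MI4KO and 0.784, 0.788 and 0.688 in MI4OE. Vwf over Cdh5 lay between 0.260 and 0.303 in MI4KO and between 0.115 and 0.243 in MI4OE. Both ratios, and that of Vegfa to Cdh5, were lower in each MI4OE library than in each MI4KO library, with an exact permutation p of 0.1. The ratios of Kdr, Flt1, Tek, Tie1, Eng and Cldn5 to Cdh5 overlapped between the groups, with exact permutation p-values from 0.2 to 0.6. For Kdr the ratio was 0.112 in the first MI4KO replicate and 0.187 to 0.223 in the other 5 libraries. Over the 12 ratios compared, counting those to Kdr and Tek, the lowest adjusted p was 0.3, and the ratios share genes.

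Compared per length, Vegfa was the most abundant of the 10, with 30.4 TPM in MI4KO and 45.4 TPM in MI4OE on average. It exceeded Cdh5 in all 6 libraries, by a ratio between 1.25 and 2.004. Averaged over the 6 libraries, Cdh5 followed at 26.2 TPM, Pecam1 at 22.1, Eng at 19.7, Cldn5 at 9.76, Tie1 at 8.64, Flt1 at 6.48, Kdr at 5.18, Vwf at 5.13 and Tek at 3.43. Cdh5 and Pecam1 changed places between libraries, their ratio lying on both sides of 1. Flt1 and Kdr did so too, since their ratio also crossed 1. TPM were lower against CPM in the first MI4KO replicate than elsewhere, where the 10 genes summed to 66.8 TPM, compared with 124 to 135 TPM in the other MI4KO libraries and 147 to 233 TPM in MI4OE.

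Other genes of the same pathways were taken from 8 lists with 86 genes, of which 82 were tested. In MI4OE 69 of them were higher and 13 lower, with a median log2 difference of 0.58. Their adjusted p passed the threshold in 0 of 82 by edgeR's quasi-likelihood test, in 1 by edgeR's exact test (Sox7) and in 3 by DESeq2 (Sox7, Sox18 and Aqp1). The exact test called 0.853% of all genes and DESeq2 0.877%. An unadjusted p under 0.05 in edgeR's quasi-likelihood test was reached by 28, against 7.58% of all genes. The criterion of the study was met by 25 as higher and 1 as lower. Of all genes 6.64% met it in either direction and 4.36% as higher, and these shares also apply to each list below. Without both first replicates 58 of the 82 were higher and the median was 0.19. In that fit 5 met the criterion as higher and 2 as lower, where 1.9% of all genes met it as higher and 2.98% as lower.

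The remaining ligands and receptors of the VEGF family were all on the same side, 7 of 7 higher with a median of 0.79. The median was 0.51 without the first MI4KO replicate, 0.499 without the first MI4OE replicate and 0.22 without both, with 7 of 7 higher each time. Flt4, the receptor VEGFR3 of lymphatic and sprouting endothelium, was at 2.46, 4.91 and 3.33 CPM in MI4KO against 10.4, 5.56 and 7.29 CPM in MI4OE. It was the only one of the 7 at the criterion, with a log2 difference of 1.12 (SE 0.33) and an adjusted edgeR p of 0.521, and its unadjusted p was under 0.05 in each of the 6 fits that left out 1 library. Without both first replicates its difference was 0.64, with an unadjusted edgeR p of 0.0666. The co-receptors Nrp1 and Nrp2 had differences of 0.79 and 0.72 and overlapped. Nrp1 was at 0.33 without the first MI4OE replicate and 0.02 without both first replicates, and Nrp2 at 0.42 without the first MI4KO replicate. Vegfb, which acts through VEGFR1 and was the most abundant ligand at 195 TPM, ranged from 88.1 to 140 CPM in MI4KO and from 97.7 to 258 CPM in MI4OE. Its difference of 0.51 was 0.0079 without the first MI4OE replicate. Vegfc and Pgf, further ligands of the family, were at 0.246 to 1.51 and 0.573 to 1.51 CPM in MI4KO against 1.19 to 1.87 and 1.05 to 2.56 CPM in MI4OE.

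In the angiopoietin pathway 4 of 4 tested genes were higher, with a median of 0.55. Angpt1, the agonist of TIE2 released by pericytes, was at 1.597, 4.08 and 4.57 CPM in MI4KO against 7.18, 5.17 and 5.87 CPM in MI4OE. Angpt2, its context-dependent antagonist, overlapped at 1.56 to 2.26 and 1.99 to 3.98 CPM. The difference of Angpt1, 0.82, was 0.48 without the first MI4KO replicate, and that of Angpt2, 0.51, was 0.11 without the first MI4OE replicate. Ptprb, the phosphatase that restrains TIE2, met the criterion at a log2 difference of 0.59, and in 2 of the 6 fits without 1 library. Svep1, which encodes a matrix protein that binds TIE1, had the smallest difference of the list, 0.47, or 0.25 without the third MI4OE replicate.

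The list of other endothelial genes had 22 of 23 higher, a median of 0.71 and 11 at the criterion. Without the first MI4KO replicate 3 met the criterion, against 4.88% of all genes. Without the first MI4OE replicate 3 did, against 4.56%, and the median was 0.35. Without both 1 did, against 4.89% of all genes. Without the second MI4OE replicate 17 did, where the share of all genes was also higher, at 10.2%. Podxl, an endothelial sialomucin, had the largest difference, 1.02, and Plvap, the diaphragm protein of fenestrated capillaries, the smallest, -0.16, which was 0.05 without the third MI4KO replicate. Gpihbp1, which carries lipoprotein lipase to the capillary lumen, was at 13.8, 12.1 and 17.2 CPM in MI4KO against 44.8, 18.0 and 23.5 CPM in MI4OE. Nos3, the endothelial nitric oxide synthase, was at 6.92, 6.54 and 7.89 CPM in MI4KO against 17.3, 9.82 and 10.95 CPM in MI4OE. Both were without overlap, and Nos3 had an unadjusted p of 0.0349 by edgeR without both first replicates, where Gpihbp1 had 0.0833. Their differences, 0.83 for Nos3 and 0.999 for Gpihbp1, were 0.54 and 0.53 without the first MI4OE replicate. Aqp1, the water channel of capillary endothelium and red cells, was named after its values were seen, at 171, 180 and 165 CPM in MI4KO against 395, 239 and 298 CPM in MI4OE. Its log2 difference was 0.85 (SE 0.22) with an adjusted edgeR p of 0.495. Emcn and Esam, surface proteins of capillary endothelium, had differences of 0.71 and 0.53, or 0.33 and 0.19 without the first MI4OE replicate, and did not meet the criterion.

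Among the transcription factors of endothelium 12 of 12 tested were higher, the median was 0.77 and 5 met the criterion. With 1 library left out 2 to 5 met it as higher, the 2 being reached without the first or second MI4KO replicate or the first MI4OE replicate. Without the first MI4OE replicate Klf4 met it as lower, at -0.65 with an unadjusted edgeR p of 0.0253, 9 of 12 were higher and the median was 0.44. Without the first MI4KO replicate the median was 0.48. The SOXF factors, which direct arterial and VEGF-driven programs, included the largest differences of the list, those of Sox7 and Sox18. Sox7 was at 1.94 to 3.73 CPM in MI4KO against 15.3, 5.98 and 7.29 CPM in MI4OE, with a log2 difference of 1.86 and a standard error of 0.42. Sox18 was at 7.57, 5.19 and 6.95 CPM in MI4KO against 35.9, 12.7 and 11.3 CPM in MI4OE, with a difference of 1.598 and an SE of 0.45. Neither passed the adjusted threshold in edgeR's quasi-likelihood test, at 0.445 and 0.521, but both kept an unadjusted p under 0.05 in each of the 6 fits without 1 library and without both first replicates, where the differences were 1.21 and 0.97. Sox18 was at 0.86 without the first MI4OE replicate. Sox17, the remaining one of the family, overlapped at a difference of 0.76. Erg and Fli1, the ETS factors of endothelial identity, had differences of 0.57 and 0.79 and overlapped, and they were 0.26 and 0.45 without the first MI4KO replicate. Klf2, which answers to blood flow, had the smallest, 0.09, and Bcl6b, a VEGF-responsive repressor, had 1.11 with an SE of 0.60, or 0.38 without the first MI4OE replicate. Klf2 was at -0.29 without the first MI4KO replicate and -0.52 without the first MI4OE replicate. Without both first replicates 8 of the 12 were higher, 2 met the criterion as higher and 2 as lower. The lower ones were Klf2 at -0.91, with an unadjusted edgeR p of 0.00467, and its relative Klf4 at -0.75, with 0.0208, and Klf4 was named after its values were seen.

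Genes of the Notch, arterial and venous list were higher in 14 of 14, with a median of 0.58 and 4 at the criterion. Without the first MI4OE replicate 0 met it by edgeR, and without the first MI4KO replicate 2 did, with 12 of 14 higher and a median of 0.38. Aplnr, the apelin receptor of sprouting endothelium, was at 0.328, 2.54 and 3.73 CPM in MI4KO against 10.3, 5.73 and 7.02 CPM in MI4OE, with a difference of 1.79 and a standard error of 0.66. Its ligand Apln overlapped at 0.123 to 2.82 and 1.92 to 2.52 CPM. Notch1 and its tip-cell ligand Dll4 had differences of 0.76 and 0.58, both without overlap, with Dll4 at 0.34 without the first MI4KO replicate. Jag2 had the smallest of the list, 0.14, which was 0.25 without the second MI4KO replicate and 0.03 without the third. For BMP and TGF-beta receptors and regulators 4 of 6 were higher, among them Acvrl1, the endothelial receptor ALK1, at 0.65 and Bmp6, a BMP ligand, at 1.202. Bmpr2, the type II receptor, had -0.36, which was -0.04 without the second MI4KO replicate, and overlapped.

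**Figure D4:**
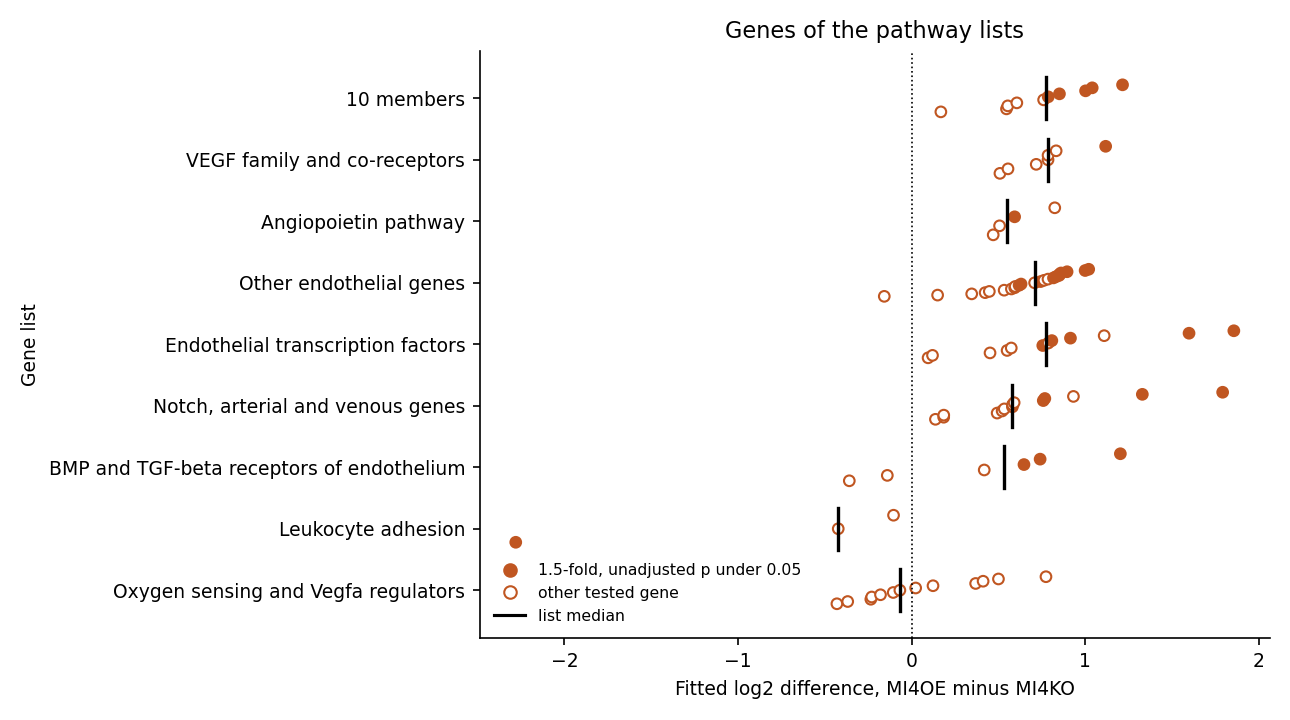
Fitted log2 differences, MI4OE minus MI4KO, of the tested genes in each list, 1 point per gene, filled where the gene met 1.5-fold and an unadjusted p under 0.05, with a bar at the list median. Medians lie between 0.53 and 0.79 for the members and 6 lists of vessel genes, at -0.42 for leukocyte adhesion and at -0.07 for oxygen sensing.

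Leukocyte adhesion genes, which inflamed endothelium displays, had differences below 0 in 3 of 3 tested. Selp, P-selectin, was at 9.95, 1.43 and 1.54 CPM in MI4KO against 0.738, 1.29 and 0.574 CPM in MI4OE, so 1 library set its difference of -2.28. Without that library, the first MI4KO replicate, the difference was -0.76 with an unadjusted edgeR p of 0.129. Vcam1, an adhesion molecule for leukocytes, was at 1.92 to 3.05 CPM in MI4KO against 2.02 to 2.56 CPM in MI4OE, and its difference was 0.08 without the second MI4KO replicate. Icam1, a further leukocyte adhesion molecule, had -0.42, which was 0.11 without the first MI4KO replicate.

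The regulators that set Vegfa by oxygen or by metabolic demand showed no common direction, with 6 higher, 7 lower, a median of -0.07 and none at the criterion. An unadjusted edgeR p under 0.05 was also reached by none of these 13. Hif1a, the hypoxia-inducible factor subunit, was at 5.65, 11.4 and 7.25 CPM in MI4KO against 5.26, 8.67 and 9.19 CPM in MI4OE, a difference of -0.07 with an SE of 0.32. Epas1, its endothelial counterpart HIF-2 alpha, had 0.41 with an SE of 0.24, or 0.21 without the first MI4OE replicate and 0.58 without the second. Ppargc1a, the coactivator PGC-1 alpha that raises Vegfa in exercised muscle, and its partner receptor Esrra had 0.02 and 0.12, with standard errors of 0.23 each. The signs of Hif1a, Ppargc1a and Esrra turned when single libraries were left out. Egln3, a hypoxia-induced prolyl hydroxylase, had the largest difference, 0.77, which was -0.28 without the first MI4OE replicate. Hif3a had the smallest, -0.43, which was -0.02 without the first MI4OE replicate and -1.20 without the second.

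Markers of other cells in the muscle were read in the same libraries. Mural cells wrap capillaries and small arteries, and of their 11 markers 10 were higher, 7 met the criterion and the median was 1.07. Of all genes 6.64% met the criterion. Pdgfrb, the pericyte receptor for PDGF-B, was at 6.84, 12.2 and 9.84 CPM in MI4KO against 19.4, 19.4 and 21.7 CPM in MI4OE. The groups did not overlap, and its log2 difference of 1.07 with an SE of 0.22 was 0.90 without both first replicates. Its adjusted edgeR p was 0.433. Rgs5, another pericyte gene, overlapped at 9.54 to 19.5 and 18.2 to 29.1 CPM. Summed over the list the levels overlapped, at 262 to 404 CPM in MI4KO against 361 to 454 CPM in MI4OE. The one lower gene, Abcc9, a potassium channel subunit that muscle fibers also make, supplied 150 to 254 CPM of the MI4KO sums and 101 to 211 CPM of the MI4OE sums. Without it the other 10 summed to 101, 149 and 128 CPM in MI4KO against 269, 243 and 186 CPM in MI4OE, with no overlap and with the same lowest and highest library as the 10 vascular genes. Over all 11 markers, 5 still met the criterion without both first replicates, against 4.89% of all genes. The list median was then 0.69.

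Lymphatic endothelium was a minor part of the signal, with a sum of 7.41 to 8.03 CPM in MI4KO against 8.44 to 22.8 CPM in MI4OE for 5 markers, 4 of 4 tested being higher. Its defining factor Prox1 was at 0.0672 to 0.246 CPM in MI4KO against 0.245 to 1.13 CPM in MI4OE, too low for the test. Fibroblast markers were higher in 9 of 10, with a median of 0.76 and 7 at the criterion, against 6.64% of all genes. Without both first replicates 4 met it, against 4.89% of all genes. The fibroblast sums were 252 to 411 CPM in MI4KO against 437 to 613 CPM in MI4OE. Red cell genes, a reading of blood left in the tissue, were higher in 5 of 5 tested, of which Hbb-bt and Hbb-b2 have the same counts in every library and are 1 measurement, with sums of 193 to 308 CPM in MI4KO against 257 to 776 CPM in MI4OE, the 776 CPM being the first MI4OE replicate. Counting that pair once, 4 of 4 were higher and the sums were 189 to 299 CPM against 249.6 to 755 CPM. Over the 5 tested entries the median log2 difference was 0.86, but 0.13 without the first MI4OE replicate, where 4 of 5 were higher. Hba-a2 and Hbb-bs were listed at 0 in all 6 libraries, and counts of near-identical globin genes are uncertain. Adipocyte markers were lower in 6 of 6, with sums of 56.2 to 568 CPM in MI4KO against 6.25 to 34.8 CPM in MI4OE. Macrophage markers had 7 of 10 lower and overlapping sums, 35.0 to 62.0 and 25.6 to 57.4 CPM, but 7 of 10 were higher without the second MI4OE replicate, and Schwann cell markers had 6 of 6 higher with sums of 30.4 to 131 and 84.7 to 247 CPM. The part of these cell types in the vascular differences was not tested.

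**Figure D5:**
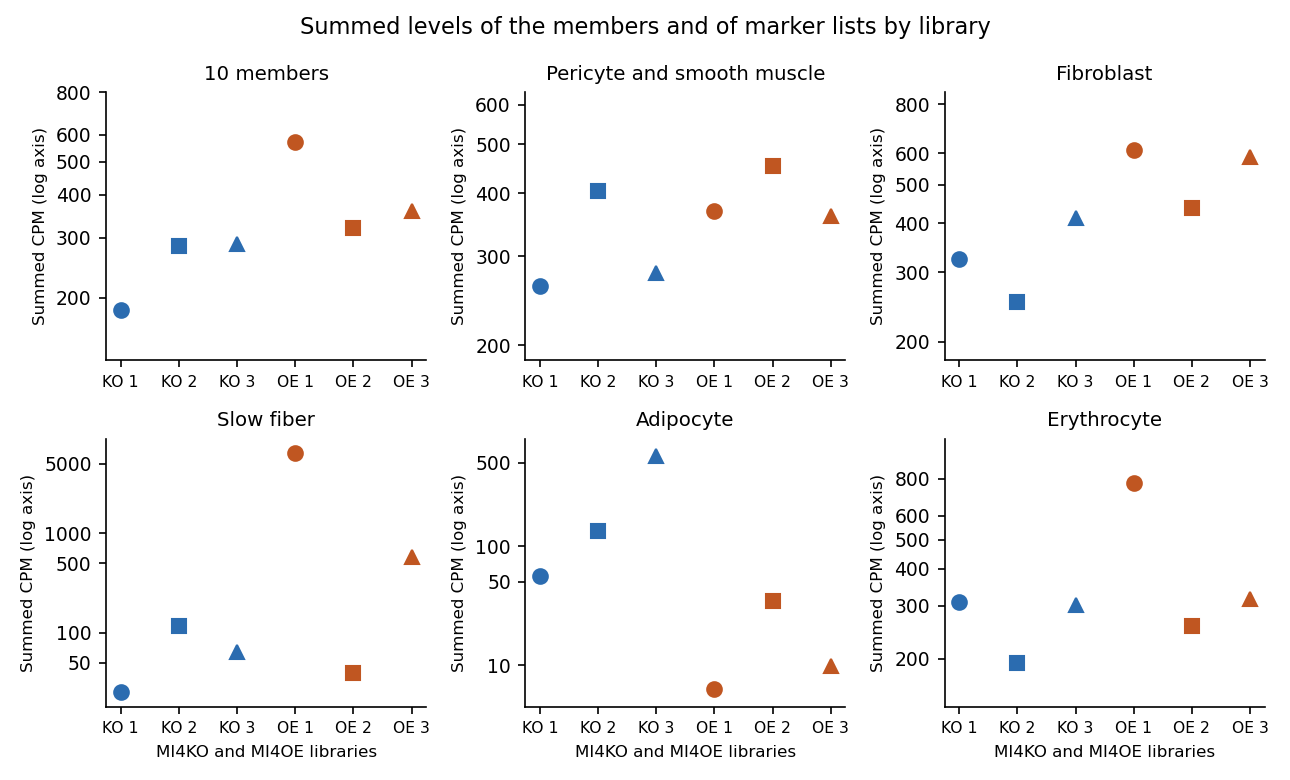
Summed CPM of the 10 genes and of 5 marker lists in each library on log axes, with MI4KO in blue, MI4OE in orange and 1 symbol per replicate. The first MI4OE replicate is highest for the 10 genes (572 CPM), the slow fiber list (6323 CPM) and the red cell list (776 CPM). It is not for the mural cell list with Abcc9, as plotted, but is without that gene (269 CPM).

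Transcripts of slow and oxidative fibers varied widely among the libraries of each group. Myh7, the myosin of slow fibers, measured 0.205, 20.5 and 1.04 CPM in MI4KO against 1603, 0.280 and 162 CPM in MI4OE. Myh2, the myosin of fast oxidative fibers, was at 3.44, 90.1 and 1022 CPM in MI4KO against 7421, 13.2 and 1808 CPM in MI4OE, and Myh4, that of fast glycolytic fibers, was between 79759 and 110582 CPM in MI4KO against 39865, 98740 and 89257 CPM in MI4OE. The 8 slow fiber genes summed to 25.1, 115 and 64.1 CPM in MI4KO against 6323, 39.1 and 578 CPM in MI4OE, with 8 of 8 higher. The library with the least slow fiber signal, the first MI4KO replicate, had the least of the 10 vascular genes, and the library with the most had the most. The second MI4OE replicate, with a slow fiber sum below those of MI4KO replicates 2 and 3, nonetheless had a higher sum of the 10 genes than either. The 9 fast fiber genes summed to between 205513 and 269192 CPM in MI4KO and between 143891 and 220407 CPM in MI4OE. The part of fiber type in the vascular differences was not tested.

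Transcript length was read as a further property of the libraries, since the genes other than Cldn5 have transcripts of 2637 bases or more. The longest 20% of genes were those over 4634 bases. Their median log2 level, relative to the mean of each gene, was -0.16, 0.22 and -0.09 in MI4KO replicates 1, 2 and 3. It was -0.16, 0.16 and 0.04 in those of MI4OE. Among the 20% next in length, the transcripts of Cdh5 and Tie1 fall. Their median was -0.07, 0.12 and -0.03 in the MI4KO replicates and -0.12, 0.09 and 0.03 in the MI4OE replicates. The part of transcript length in the vascular differences was not tested.

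The genes whose pattern over the 6 libraries was closest to the average of the 10 were Samd14, Elk3, Antxr1, Asap2 and Vash1. Likeness was measured as the root mean square difference of the centered log2 CPM, which was 0.0378 for Samd14, 0.0386 for Elk3, 0.0495 for Antxr1, 0.0608 for Asap2 and 0.0781 for Vash1, against a median of 0.562 over the tested genes. Elk3 encodes an ETS factor and Vash1 an inhibitor of angiogenesis made by endothelium, while the roles of Samd14, Antxr1 and Asap2 are not described here. Elk3 was at 4.83, 7.37 and 7.76 CPM in MI4KO against 15.1, 8.53 and 9.14 CPM in MI4OE. Its likeness to the members follows from how it was picked. Among the 10 themselves Vegfa was nearest to their average, at 0.115, and Kdr and Vwf were farthest, at 0.428 and 0.396. That average was -0.82, -0.19 and -0.11 in MI4KO and 0.85, 0.06 and 0.21 in MI4OE on the centered log2 scale.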

How the data were processed

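According to the labels and methods, mRNA-enriched stranded libraries were sequenced as single reads of 50 bases. The authors demultiplexed with bcl2fastq 2.17, mapped to a UCSC transcript set with Bowtie2 2.1.0 and quantified with RSEM 1.2.15. The genome build is not given in the sources used here. The expected counts deposited by the authors are RSEM estimates that need not be whole and are not normalized. The TPM values deposited by the authors are length-adjusted RSEM abundances. A table with the authors' own fold changes, p-values and false discovery rates was not used, and neither were 12 columns of its per-sample values and those of a shorter table.

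Expected counts were rounded and fitted across all genes with edgeR 4.0.16 in R 4.3.3, using TMM factors, filterByExpr (minimum count 10, minimum total 15), the quasi-likelihood test at default settings and Benjamini-Hochberg adjustment. CPM used TMM-scaled library sizes. Intervals are at 95%. Groups came from the genotype label. Replicate numbers follow the order of deposit. The titles carry a number for each library, but nothing says what it stands for, so p-values measure the spread between these libraries. The 10 genes, the lists and the alternatives were chosen with earlier results of these data known. The genes named were the 10, Irf4, a set list of vascular genes, the extremes of each pathway list, the 5 nearest in pattern and 3 myosins, while Ckm, Prox1, Aqp1, Klf4, Icam1, Abcc9, Hbb-bt, Hbb-b2 and the globins at 0 were named after their values were seen. The tests were run on simulated counts before use, and the 6 libraries differed from each other by more than sampling noise. Alternatives were RLE factors, total counts, 2 other filters, DESeq2 1.42.0, edgeR's exact test, bias-adjusted deviances, limma 3.58.1 on log2(TPM + 1) and log2(TPM + 0.1), and leaving out each library. With 3 libraries a group, an exact permutation test cannot go below p = 0.1. Promoters were RefSeq windows of GRCm38.p6. Proteins were not used here.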

Additional observations from a re-analysis of the deposited data

How the results depend on the processing

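No paired analysis was possible because each library has its own number in its title, with none shared between groups. No member passed an adjusted p of 0.05 in any of 15 other settings, listed among the processing steps, and the direction of 9 of 10 members was the same in all of them. With 1 library left out Vwf ran from -0.07 to 0.35, the lower value being without MI4KO replicate 1, and it was -0.11 without both first replicates, an alternative chosen after seeing the data. Over all genes, the count at an adjusted p under 0.05 was 3, rising to 111 under DESeq2 and 108 under the exact test of edgeR, and it ran from 1 to 4 when 1 library was left out. The count at the study's criterion was 841, but 468 with limma on log2(TPM + 1), and it ran from 590 to 1314 when 1 library was left out, the 1314 being without MI4OE replicate 2. Members at the criterion numbered 5, or 6 with no filter, DESeq2 or the exact test. When 1 library was left out they numbered 2 to 8. The count was 2 when MI4KO replicate 1 was dropped, 3 for MI4OE replicate 1 and 8 for MI4OE replicate 2. Of all genes 4.88%, 4.56% and 10.2% met the criterion in those fits, in that order. Without both first replicates 1 member met it and the median difference of the members was 0.29, against 0.77 with all libraries and 0.48 to 0.94 when 1 was left out, and the cause was not tested. Low genes such as Vegfc, Pgf and Apln had about 1 CPM, where counting error is large.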
